A study of Mus musculus with 19 samples.

Results

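The unfolded protein response of the endoplasmic reticulum (ER) was followed in mouse brain through 10 of its genes. They are the sensors Ern1, Eif2ak3 and Atf6, the transcription factors Xbp1 and Ddit3, the chaperones and folding enzymes Hspa5, Hsp90b1, Calr and Pdia4, and Herpud1 of ER-associated degradation. All probe sets whose single gene symbol in the annotation given with the series was one of these 10 were taken, whatever their values, which gave 29 of 45037 probe sets. A probe set is a group of short probes against 1 transcript region, and its value here is a log2 intensity. A filter on dim signals (mean over the 19 arrays not under 4) left 20 of the 29, which were tested among 20473 probe sets in all. These 20 cover 9 of the 10 genes, where the whole series has 18193 genes with such a probe set and 10454 with a tested one. The other 9 member probe sets lay between 1.93 and 4.27 on every array and include both probe sets of Pdia4 (2.03 to 3.21), so Pdia4 was not tested. The median of all untested probe sets was 2.39.

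RNA came from brains of male mice in 4 groups: 5 arrays of SCA3 transgenic (tg) mice given CCI-779, 5 of SCA3 tg mice given placebo, 5 of wild-type (wt) mice given CCI-779 and 4 of wt mice given placebo. CCI-779 (temsirolimus) is an ester of rapamycin and blocks mTOR, a kinase that controls growth and translation. Treatment began at an age of 5 weeks and lasted 6 weeks, with 3 intraperitoneal injections of 20 mg/kg each week, and placebo mice were injected as often. In spinocerebellar ataxia type 3 (SCA3) the protein ataxin-3 carries an expanded polyglutamine tract. The promoter and line of the transgene, the strain of the mice and the content of the placebo are not given in the sources used here. Nothing there says that each array came from a separate mouse, so the spread between arrays may in part be technical. The design asks what the drug does in each genotype, what the transgene does under each agent, and whether the drug effect depends on genotype.

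The ER folds secreted and membrane proteins, and Hspa5 (BiP), its abundant Hsp70 chaperone, binds unfolded chains and keeps the 3 sensors inactive while few chains are unfolded. Under ER stress Ern1 (IRE1) splices the Xbp1 transcript, Eif2ak3 (PERK) phosphorylates a translation initiation factor and favours translation of Atf4, and Atf6 moves to the Golgi, where it is cut into an active transcription factor. The factors together raise chaperones and degradation genes, while Ddit3 (CHOP) is tied to cell death after prolonged stress. All of this is background from other work. The arrays measured transcript levels, not splicing, phosphorylation or protein.

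The ER stress response element (ERSE, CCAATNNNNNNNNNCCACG), known as a binding site of NF-Y and Atf6, and the shorter ERSE-II (ATTGG and CCACG with 1 base between them) were searched on both strands of the promoters in the RefSeq table (build GRCm38.p6, 250 bases before to 50 after the start of each gene). Of the 10 genes, 9 have an entry there, and Atf6 was not matched. ERSE was present in 39 of 32851 promoters (0.119%), those of Hspa5, Hsp90b1 and Calr among them, and ERSE-II in 12 (0.0365%), that of Herpud1 among them. No match of the members overlapped another. The 250 bases before the start of these 4 genes are printed, since 2 of the 4 carry the drug results below and the other 2 do not, with every match in capitals. Hspa5 lies at chr2:34771840-34772089 on the plus strand, with ERSE at bases −65 to −47 from the start. Hsp90b1 lies at chr10:86705445-86705694 on the minus strand, with ERSE at −212 to −194 and, on the opposite strand, at −107 to −89. Calr lies at chr8:84846932-84847181 on the minus strand, with ERSE on the opposite strand at −162 to −144. Herpud1 lies at chr8:94386179-94386428 on the plus strand, with ERSE-II at −52 to −42.
Hspa5: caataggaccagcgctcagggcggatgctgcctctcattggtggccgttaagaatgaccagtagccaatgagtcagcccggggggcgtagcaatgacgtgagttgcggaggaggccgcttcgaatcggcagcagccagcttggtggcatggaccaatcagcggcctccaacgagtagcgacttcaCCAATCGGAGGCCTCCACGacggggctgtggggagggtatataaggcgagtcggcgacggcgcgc
Hsp90b1: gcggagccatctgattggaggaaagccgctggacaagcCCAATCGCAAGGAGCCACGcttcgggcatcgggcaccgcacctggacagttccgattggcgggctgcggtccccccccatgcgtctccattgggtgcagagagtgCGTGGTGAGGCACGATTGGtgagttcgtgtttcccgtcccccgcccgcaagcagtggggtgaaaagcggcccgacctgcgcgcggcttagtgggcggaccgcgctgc
Calr: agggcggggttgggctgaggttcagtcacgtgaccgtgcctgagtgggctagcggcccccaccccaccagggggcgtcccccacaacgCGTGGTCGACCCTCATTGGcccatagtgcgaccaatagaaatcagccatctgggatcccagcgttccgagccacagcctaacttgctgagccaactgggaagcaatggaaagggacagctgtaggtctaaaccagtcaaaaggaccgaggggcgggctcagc
Herpud1: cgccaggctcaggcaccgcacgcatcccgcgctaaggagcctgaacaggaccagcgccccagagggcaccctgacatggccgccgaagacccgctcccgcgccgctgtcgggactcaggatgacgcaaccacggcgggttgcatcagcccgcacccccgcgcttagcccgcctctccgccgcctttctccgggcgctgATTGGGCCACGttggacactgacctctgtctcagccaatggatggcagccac
A match is a run of letters and shows no binding, and no match in the other 5 promoters says nothing of the factors.

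Mean intensity lay between 443 and 469 on the arrays. Hybridisation spike-ins, transcripts added in fixed amounts, were dimmer on CCI-779 than on placebo arrays by 0.80 in SCA3 (exact permutation p = 0.00794, adjusted 0.0318 over 24 array measures) and by 0.88 in wt (exact permutation p = 0.0159, adjusted 0.0424). Their mean lay between 10.13 and 10.34 on SCA3 CCI-779 arrays and between 10.86 and 11.26 on SCA3 placebo arrays. In wt it lay between 9.62 and 10.31 under CCI-779 and between 10.50 and 11.19 under placebo. With these spike-ins in the model as a covariate no member passed. Of 20473 probe sets 1 passed in SCA3 and 0 in wt. The drug effect of the brightest Hspa5 probe set, averaged over the genotypes, was then −0.21 (limma, adjusted p = 0.624). Such a covariate separates the treatments and widens the error of every drug difference, so this fit cannot tell the drug from the spike-in level. The labels name no processing batch, and one that ran with treatment cannot be told apart from the drug in any CCI-779 difference given here. At an unadjusted p under 0.05, 30.4% of all probe sets passed for the drug in SCA3, 28.9% in wt and 40.7% averaged, against 5% by definition without any effect. After adjustment 15.2%, 11.9% and 28.8% passed. Risers and fallers over all probe sets numbered 2094 and 1013 in SCA3 and 2002 and 433 in wt, against 1587 and 1961 in SCA3 and 959 and 1163 in wt with arrays centred on their median. Averaged over the genotypes they numbered 4112 and 1774, against 2705 and 4312 with the centring. Quantile normalization gave 1817 and 1613 in SCA3, 1189 and 750 in wt and 3153 and 3160 averaged. The median centring shifted the median of all probe sets from 0.05 to −0.05 in wt and from 0.01 to −0.05 in SCA3. The arrays of SCA3 CCI-779 replicates 2 and 5 and of wt CCI-779 replicate 1 stood apart from the others in the actin 3′ minus 5′ log2 value. It was 0.96, 0.88 and 2.55 on them, and between 1.19 and 1.55 on all others. These 3 arrays were picked after the data were seen. The brain was checked by 8 neuronal markers, all of them tested, whose mean lay between 12.92 and 12.98 in the 4 groups.

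Transcripts of 2 ER chaperones, Hspa5 and, on 1 of its 2 probe sets, Hsp90b1, were lower under CCI-779 than under placebo in both genotypes, and no member rose in either genotype taken alone. In SCA3 brains 2 of the 20 member probe sets fell under CCI-779 and 0 rose, where 4.95% of all probe sets fell and 10.2% rose (limma, Benjamini-Hochberg adjusted p under 0.05 over all 20473). In wt brains 3 of 20 fell and 0 rose, where 2.11% fell and 9.78% rose. At an unadjusted p under 0.05, 7 of 20 passed in SCA3, 7 in wt and 8 averaged over the genotypes. Of all probe sets 30.4%, 28.9% and 40.7% did, so these counts lie near the shares of the whole series. The median difference of the 20 was −0.08 in SCA3 and −0.05 in wt, beside 0.01 and 0.05 over all tested probe sets. By gene, on the brightest probe set, the median of the 9 was −0.09 in SCA3 and 0.05 in wt, beside 0.00 and 0.08 over all genes, so its sign in wt depends on that choice. Counted by gene on the brightest probe set, 1 of 9 genes, Hspa5, fell in each genotype, where 6.09% of 10454 genes fell and 11% rose in SCA3 and 1.64% fell and 11.5% rose in wt. In bulk tissue a lower value from fewer cells of a type and one from less RNA per cell cannot be told apart.

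The brightest Hspa5 probe set, 1416064_a_at, read 12.08, 11.70, 11.95, 12.07 and 11.79 on the SCA3 CCI-779 arrays, against 12.21, 12.21, 12.19, 12.32 and 12.49 on the SCA3 placebo arrays. It read 12.07, 12.06, 12.08, 11.89 and 12.07 on the wt CCI-779 arrays, against 12.20, 12.38, 12.54 and 12.29 on the wt placebo arrays. All CCI-779 arrays were below all placebo arrays in both genotypes. The SCA3 means were 11.91 ± 0.17 under CCI-779 and 12.28 ± 0.12 under placebo (SD, n = 5 each), a difference of −0.37 (SE 0.08, 95% interval −0.55 to −0.19), or 1.29-fold lower (limma, adjusted p = 0.00814). In wt the means were 12.04 ± 0.08 under CCI-779 (SD, n = 5) and 12.35 ± 0.14 under placebo (SD, n = 4), a difference of −0.32 (SE 0.09, 95% interval −0.50 to −0.13), or 1.25-fold lower (limma, adjusted p = 0.0302). The SCA3 call held without any 1 of the 19 arrays. Without SCA3 CCI-779 replicates 2 and 5, the lowest arrays of the group, the difference was −0.25 and did not pass (limma, adjusted p = 0.0848). The wt call was lost without wt CCI-779 replicate 4 (−0.28) or wt placebo replicate 2 (−0.31), 3 (−0.25) or 4 (−0.34), with adjusted p up to 0.105.

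Hspa5 has a pair of further tested probe sets, and both pointed the same way. The dimmest, 1447824_x_at, whose probes may also bind related sequences, read 7.04, 6.26, 6.97, 6.41 and 6.47 in SCA3 CCI-779 and 6.99, 6.95, 7.06, 7.07 and 7.15 in SCA3 placebo. In wt it read 7.30, 6.38, 6.75, 6.97 and 6.88 under CCI-779 and 7.38, 7.23, 7.44 and 7.57 under placebo. The groups overlapped in both genotypes, through SCA3 CCI-779 replicates 1 and 3 and wt CCI-779 replicate 1. The wt difference was −0.55 (SE 0.17, 1.46-fold lower, limma adjusted p = 0.0394), and the SCA3 difference of −0.41 did not pass (SE 0.16, limma adjusted p = 0.0829). The wt call did not survive the removal of any 1 of wt placebo replicates 1 to 4 or wt CCI-779 replicates 2 to 5, with differences of −0.43 to −0.61 and adjusted p up to 0.108. The third, 1427464_s_at, lay between 11.13 and 11.18 on the SCA3 CCI-779 arrays and between 11.22 and 11.53 on the SCA3 placebo arrays, without overlap. Its differences were −0.16 in SCA3 (limma, adjusted p = 0.0853) and −0.09 in wt (limma, adjusted p = 0.363), and neither passed.

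Hsp90b1 (GRP94), the Hsp90 chaperone of the ER, is read by 2 probe sets that disagreed. The dimmer one, 1438040_a_at, read 10.50, 10.68, 10.84, 10.47 and 10.63 on the SCA3 CCI-779 arrays, against 11.18, 11.22, 11.10, 11.18 and 11.36 on the SCA3 placebo arrays. In wt it read 9.73, 11.00, 10.94, 10.88 and 10.89 under CCI-779, against 11.31, 11.16, 11.28 and 11.37 under placebo. Drug and placebo arrays did not overlap in either genotype, and wt CCI-779 replicate 1 was far below the rest. The difference was −0.58 in SCA3 (SE 0.18, 95% interval −0.95 to −0.22, 1.5-fold lower, limma adjusted p = 0.0326) and −0.59 in wt (SE 0.19, 95% interval −0.99 to −0.20, 1.51-fold lower, limma adjusted p = 0.0462). The SCA3 call was lost without any 1 of SCA3 CCI-779 replicates 1, 2, 4 and 5 or SCA3 placebo replicates 1, 2, 4 and 5, with differences of −0.55 to −0.60 and adjusted p up to 0.0693. The wt call was lost in 15 of the 19 fits that left out 1 array, with adjusted p up to 0.106. Without wt CCI-779 replicate 1 it passed with a difference of −0.35 (adjusted p = 0.0122). It was also lost with quantile normalization (−0.64, limma adjusted p = 0.0501) and with the actin 3′ to 5′ difference as a covariate (−0.36, limma adjusted p = 0.0555). The SCA3 difference was −0.61 (limma, adjusted p = 0.109) when SCA3 CCI-779 replicates 2 and 5 were removed. The brighter probe set, 1415889_a_at, read 12.33, 12.41, 12.30, 12.29 and 12.61 in SCA3 CCI-779, against 12.62, 12.59, 12.50, 12.49 and 12.65 in SCA3 placebo. Its difference was −0.18 in SCA3 (SE 0.07, 95% interval −0.33 to −0.03, limma adjusted p = 0.0951) and 0.02 in wt (SE 0.07, 95% interval −0.14 to 0.18, limma adjusted p = 0.886), so the gene counted as not called.

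**Figure D1:**
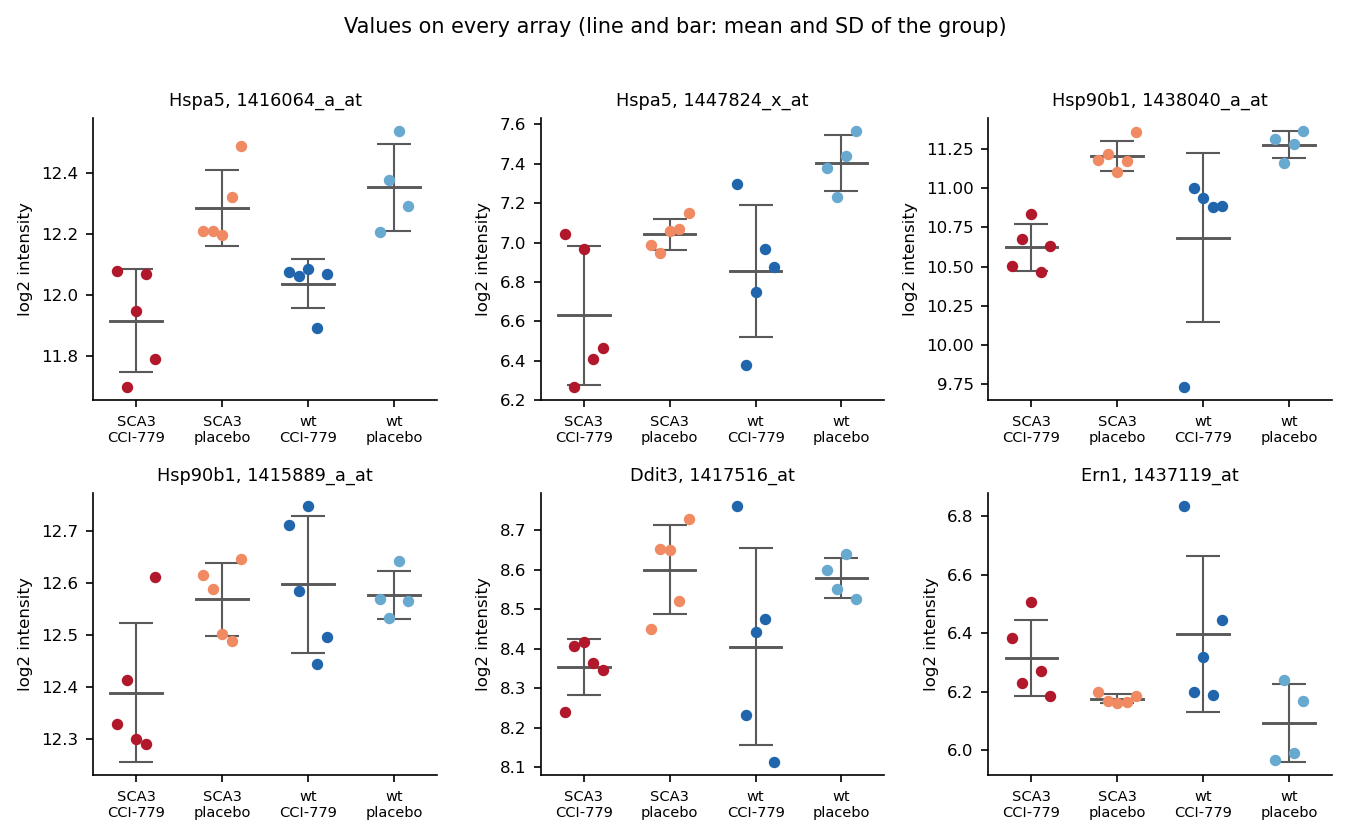
Log2 intensity of 6 member probe sets on each of the 19 arrays (y axes, scaled per panel), in SCA3 CCI-779, SCA3 placebo, wt CCI-779 and wt placebo mice (x axis), with the mean and SD of each group. The CCI-779 points of Hspa5 1416064_a_at and Hsp90b1 1438040_a_at lie below all placebo points of the same genotype, and wt CCI-779 replicate 1 sits at 9.73 for Hsp90b1 1438040_a_at.

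RNA quality moved with several member probe sets, most closely with the dimmer one of Hsp90b1 and the dimmest of Atf6. The 3′ minus 5′ log2 value of GAPDH, taken from its control probe sets, which grows as RNA is degraded or copied less completely, lay between −0.43 and −0.28 on SCA3 CCI-779 arrays and between −0.53 and −0.47 on SCA3 placebo arrays (exact permutation p = 0.00794, adjusted 0.0318). It lay between −0.44 and 0.28 on wt CCI-779 arrays and between −0.58 and −0.50 on wt placebo arrays (exact permutation p = 0.0317, adjusted 0.0692). After subtraction of group means, Hsp90b1 1438040_a_at ran against the GAPDH value over the 19 arrays (Pearson r = −0.954, Spearman rho = −0.816), with a permutation p of 1e-05 for r, the smallest 100000 permutations can give, adjusted 0.00012 over 12 relations. Without wt CCI-779 replicate 1 and SCA3 CCI-779 replicate 1, the 2 arrays farthest from the median of the GAPDH value, r was −0.422, so the relation rests largely on those arrays. The same r was 0.311 for the brighter Hsp90b1 probe set and 0.135 for Hspa5 1416064_a_at (permutation, adjusted p = 0.226 and 0.658). Ddit3 and Ern1 1437119_at ran with the GAPDH value (r = 0.638 and 0.727, permutation, adjusted p = 0.0243 and 0.0141), but r was −0.125 and −0.288 without those 2 arrays, and their rho of 0.0965 and 0.379 did not pass. Hspa5 1447824_x_at gave r = 0.427 (permutation, adjusted p = 0.107) and −0.7 without them. Against the actin 3′ to 5′ difference Hsp90b1 1438040_a_at gave r = −0.84 (permutation, adjusted p = 0.00282), Ern1 0.77 (0.00396), Hspa5 1447824_x_at 0.604 (0.0141) and Ddit3 0.613 (0.0235). Without the 2 arrays farthest from the median of the actin value, wt CCI-779 replicate 1 and SCA3 CCI-779 replicate 5, these became −0.391, 0.203, 0.358 and 0.0908. Hspa5 1416064_a_at gave r = 0.424 with actin (permutation, adjusted p = 0.102), rho = 0.567 (permutation, adjusted p = 0.0449) and r = 0.614 without the 2 arrays. The brighter Hsp90b1 probe set gave 0.0303 with actin. With the GAPDH value as a covariate the drug difference of Hsp90b1 1438040_a_at was −0.30 in SCA3 (limma, adjusted p = 0.0102) and −0.15 in wt (limma, adjusted p = 0.286). For Hspa5 1416064_a_at it was −0.39 in SCA3 (limma, adjusted p = 0.0122) and −0.34 in wt (limma, adjusted p = 0.0755). The GAPDH values of CCI-779 and placebo arrays did not overlap in either genotype, so these fits cannot tell RNA quality from the drug.

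**Figure D2:**
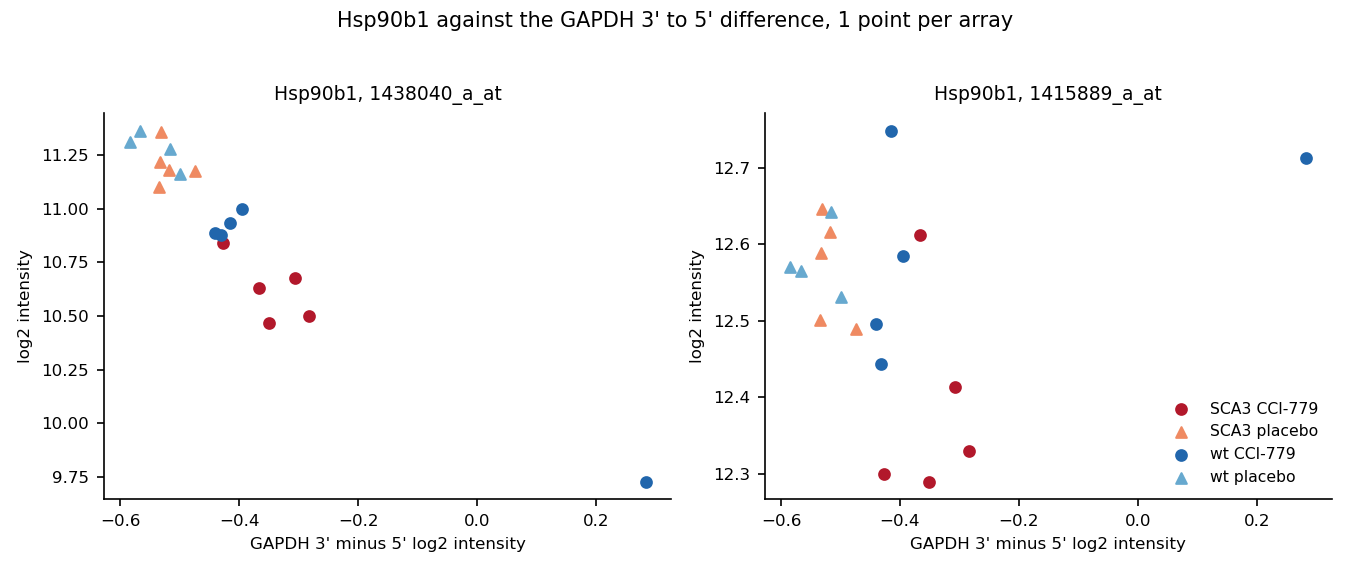
Log2 intensity of both Hsp90b1 probe sets (y axes) against the GAPDH 3′ to 5′ log2 difference (x axis), 1 point per array, circles for CCI-779 and triangles for placebo. In the left panel the values run down to 9.73 at a GAPDH value of 0.28 on wt CCI-779 replicate 1, while the same array stands at 12.71 in the right panel.

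Calr (calreticulin), a calcium-binding chaperone of glycoproteins, did not pass in either genotype on any of its 3 probe sets. The brightest, 1417606_a_at, averaged 12.42 ± 0.16 in SCA3 CCI-779 and 12.48 ± 0.18 in SCA3 placebo (SD, n = 5 each), and the difference of −0.06 had a 95% interval of −0.27 to 0.15. Its wt difference was 0.05 (95% interval −0.17 to 0.27). The other Calr probe sets, 1433806_x_at and 1456170_x_at, ran together over the arrays (r = 0.97 after subtraction of group means, 19 arrays) and stood at 0.19 each in SCA3 (limma, adjusted p = 0.167 and 0.283). Their wt differences were −0.05 and 0.00. Pdia4 (ERp72), a disulfide isomerase, stayed under the filter on all arrays.

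No sensor passed the threshold in either genotype alone. Ern1 was read by 1437119_at at 6.38, 6.23, 6.51, 6.27 and 6.18 in SCA3 CCI-779, against 6.20, 6.17, 6.16, 6.17 and 6.19 in SCA3 placebo, a difference of 0.14 (SE 0.10, limma adjusted p = 0.379). In wt it read 6.84, 6.20, 6.32, 6.19 and 6.45 under CCI-779, against 5.97, 6.24, 5.99 and 6.17 under placebo, a difference of 0.31 (SE 0.11, limma adjusted p = 0.0722). The highest of these, 6.84, is again wt CCI-779 replicate 1, and the groups overlapped in both genotypes. The dimmer Ern1 probe set 1421240_at pointed the other way, at −0.03 in SCA3 and −0.15 in wt (limma, adjusted p = 0.849 and 0.252).

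Eif2ak3, on its single tested probe set 1449278_at, lay between 8.04 and 8.39 in SCA3 CCI-779 and between 8.24 and 8.39 in SCA3 placebo, a difference of −0.09 (limma, adjusted p = 0.442). In wt all CCI-779 arrays (8.32 to 8.61) were above the placebo arrays (8.10 to 8.32), the nearest of them equal to 2 decimals, with a difference of 0.19 that did not pass (SE 0.08, limma adjusted p = 0.129). Atf6 1435444_at averaged 8.45 ± 0.22 in SCA3 CCI-779 and 8.42 ± 0.08 in SCA3 placebo (SD, n = 5 each). In wt it lay between 8.40 and 8.77 under CCI-779, above the 8.04 to 8.39 under placebo, with a difference of 0.28 (SE 0.11, limma adjusted p = 0.0908). The dimmer Atf6 probe sets stood at −0.14 and −0.07 in SCA3 and at −0.09 and −0.19 in wt, with adjusted p of 0.379 or above (limma). So 2 of 20 member probe sets had all wt CCI-779 arrays above the placebo arrays and 2 had all below, where 12.1% and 2.96% of all probe sets did. In SCA3 the numbers were 0 above and 4 below, where 8.51% and 4.67% of all probe sets did.

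Of the transcription factors, Xbp1 differed by −0.14 in SCA3 (SE 0.08, limma adjusted p = 0.26) and by −0.17 in wt (SE 0.09, limma adjusted p = 0.224) on its brightest probe set, 1437223_s_at. That probe set averaged 11.37 ± 0.17 in SCA3 CCI-779 and 11.51 ± 0.08 in SCA3 placebo (SD, n = 5 each), and 11.44 ± 0.05 in wt CCI-779 (SD, n = 5) and 11.61 ± 0.18 in wt placebo (SD, n = 4). The lowest of the 19 values, 11.11, was SCA3 CCI-779 replicate 2. The dimmer Xbp1 probe sets stood at −0.23 and −0.03 in SCA3 and at −0.05 and 0.06 in wt, none past the threshold. Whether any of them separates spliced from unspliced Xbp1 was not examined.

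Ddit3, on 1417516_at, read 8.24, 8.41, 8.42, 8.36 and 8.34 in SCA3 CCI-779, against 8.45, 8.65, 8.65, 8.52 and 8.73 in SCA3 placebo. All SCA3 CCI-779 arrays were below the placebo arrays, but the difference of −0.25 did not pass (SE 0.09, 95% interval −0.44 to −0.05, limma adjusted p = 0.0817). In wt Ddit3 read 8.76, 8.23, 8.44, 8.47 and 8.11 under CCI-779, against 8.60, 8.55, 8.64 and 8.53 under placebo, and wt CCI-779 replicate 1 was the highest of these. The wt difference was −0.17 (SE 0.10, limma adjusted p = 0.253).

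Herpud1, a membrane protein of the degradation complex, read 9.38, 9.45, 9.56, 9.65 and 9.61 on its brightest probe set 1448185_at in wt CCI-779, against 9.30, 9.40, 9.29 and 9.37 in wt placebo. These groups overlapped. The difference of 0.19 just missed the threshold (SE 0.06, 95% interval 0.06 to 0.32, limma adjusted p = 0.0517), and it passed at 0.22 without the 3 arrays that stood apart (limma, adjusted p = 0.0263). It did not pass in 16 of the 19 fits that left out 1 array. Nor did it in 8 of 14 alternatives of processing, with differences of 0.08 to 0.25 over the 14. In SCA3 the difference was 0.03 (95% interval −0.09 to 0.15). The other Herpud1 probe set, 1435626_a_at, stood at −0.04 in SCA3 and 0.02 in wt.

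**Figure D3:**
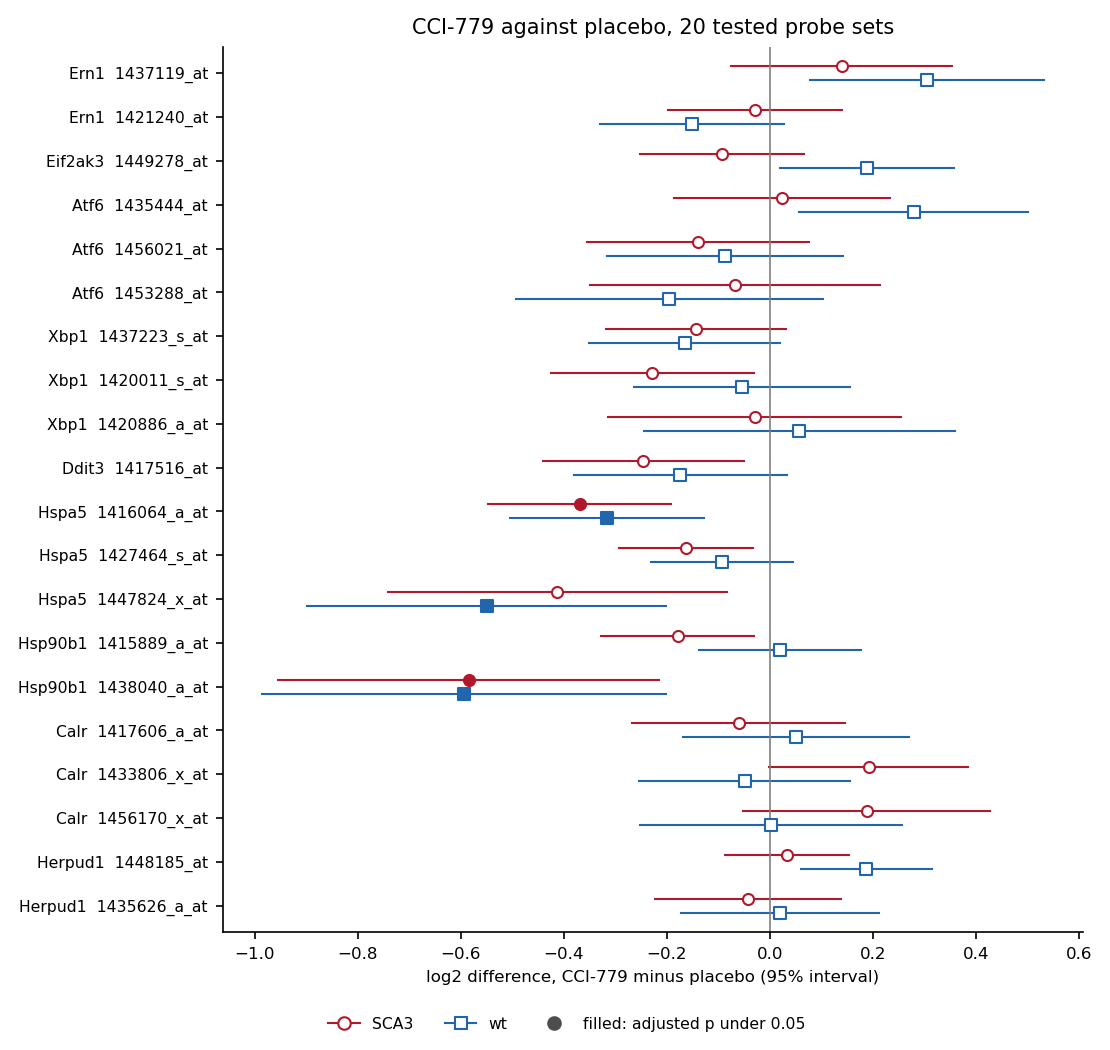
Log2 difference between CCI-779 and placebo (x axis, with its 95% interval) of the 20 tested member probe sets (rows, by role), in SCA3 (circles) and wt (squares), filled where the adjusted p is under 0.05. The filled symbols, of Hspa5 and Hsp90b1 only, run between −0.32 and −0.59.

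Averaged over both genotypes, with more arrays behind the estimate, 5 of the 20 member probe sets fell and 1 rose under CCI-779, where 8.67% of all probe sets fell and 20.1% rose. All 3 Hspa5 probe sets fell, by 0.34 (1416064_a_at, SE 0.06, limma adjusted p = 6.65e-04), 0.13 (1427464_s_at, limma adjusted p = 0.0422) and 0.48 (1447824_x_at, limma adjusted p = 0.00466) on the log2 scale. Hsp90b1 1438040_a_at fell by 0.59 (SE 0.13, limma adjusted p = 0.00261), while the brighter 1415889_a_at differed by −0.08 (limma, adjusted p = 0.253). Ddit3 fell by 0.21 (SE 0.07, 1.16-fold lower, limma adjusted p = 0.0275). Ern1 1437119_at rose by 0.22 (SE 0.07, 1.17-fold higher, limma adjusted p = 0.0322). By gene, on the brightest probe set, Hspa5 and Ddit3 fell and Ern1 rose, 3 of 9 genes, where 8.26% of genes fell and 22% rose. The dimmer Ern1 probe set 1421240_at stood at −0.09 (limma, adjusted p = 0.26). With probe sets averaged per gene Ern1 stood at 0.07 and did not pass (limma, adjusted p = 0.288). On that measure Hspa5, Ddit3 and also Hsp90b1 (−0.33, limma adjusted p = 0.00133) fell. The median of the 20 was −0.08, against 0.03 over all probe sets, and by gene −0.00, against 0.04 over all genes. Without wt placebo replicate 3 the count was 3 probe sets, since Ddit3 (adjusted p = 0.0531), Ern1 (0.065) and Hspa5 1427464_s_at (0.0749) no longer passed in that limma fit. The rise of Ern1 was 0.14 with arrays centred on their median (limma, adjusted p = 0.158) and 0.07 with GAPDH as a covariate (limma, adjusted p = 0.518). Removing SCA3 CCI-779 replicate 1, the same group's replicate 3 or wt placebo replicate 1 also ended it (adjusted p up to 0.0631), and the call of Hspa5 1427464_s_at was lost without any 1 of 12 arrays (adjusted p up to 0.0749).

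No member passed the test of SCA3 against wt mice, under placebo or under CCI-779. Under placebo 0 of 20 passed (0.00977% of all probe sets did, with 0 of them higher), and the smallest adjusted p of a member was 0.776 (limma). At an unadjusted p under 0.05 there were 2 of 20, where 5.75% of all probe sets passed. One was Hspa5 1447824_x_at, at −0.36 (95% interval −0.71 to −0.01, adjusted p = 0.845), with all SCA3 placebo arrays (6.95 to 7.15) below the wt placebo arrays (7.23 to 7.57), as in 1.29% of all probe sets, while 1.21% were all above. The other was Herpud1 1448185_at, at 0.15 (95% interval 0.02 to 0.28, adjusted p = 0.776). The brightest Hspa5 probe set differed by −0.07 between SCA3 and wt under placebo, with a 95% interval of −0.26 to 0.12. That of Hsp90b1 1438040_a_at differed by −0.07, with a wider interval of −0.46 to 0.32.

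Under CCI-779, 0 of 20 members passed between SCA3 and wt (0.00977% of all probe sets did), with the smallest adjusted p at 0.195 for Eif2ak3 (−0.23, SE 0.08, limma). By gene, 0.0191% of all genes were called lower. At an unadjusted p under 0.05, 3 of 20 passed, where 15.4% of all probe sets did. They were Eif2ak3, Hsp90b1 1415889_a_at (−0.21, adjusted p = 0.199) and Calr 1433806_x_at (0.21, adjusted p = 0.289). No member had all SCA3 arrays below or above all wt arrays under CCI-779, where 1.83% and 0.552% of all probe sets did.

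No member passed the test of a drug effect that differs between the genotypes (0 of 20, where 0% of all probe sets passed). At an unadjusted p under 0.05 there was 1 of 20, Eif2ak3 (−0.28, SE 0.11, limma adjusted p = 0.625), where 7.68% of all probe sets passed. For Hspa5 1416064_a_at the SCA3 effect minus the wt effect was −0.05 (95% interval −0.31 to 0.21, limma adjusted p = 0.923), and for Hsp90b1 1438040_a_at it was 0.01 (95% interval −0.53 to 0.55).

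**Figure D4:**
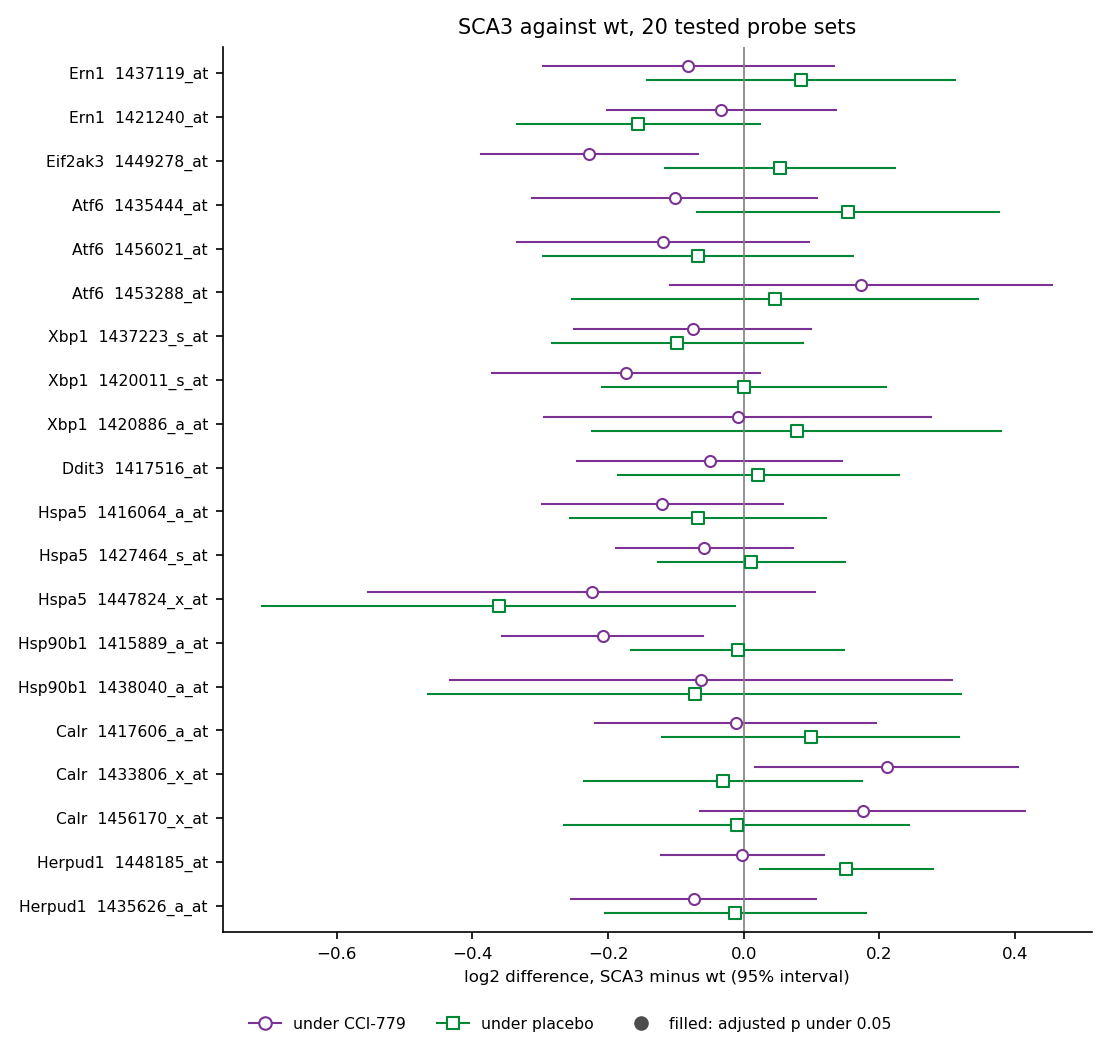
Log2 difference between SCA3 and wt (x axis, with its 95% interval) of the 20 tested member probe sets (rows, by role), under CCI-779 (circles) and under placebo (squares). No symbol is filled, since the adjusted p was 0.195 or above throughout.

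Markers of other cell types moved with the drug. The mean log2 level of 9 tested microglial genes was lower by 0.33 under CCI-779 in SCA3 and by 0.33 in wt (exact permutation p = 0.00794 each, adjusted 0.0318), and 5 of 9 fell in SCA3 and 3 of 9 in wt. Their summed intensity was 3107 to 4064 in SCA3 CCI-779 and 4437 to 4824 in SCA3 placebo, and 3108 to 3852 in wt CCI-779 and 4466 to 5053 in wt placebo. The mean of 9 tested oligodendrocyte genes, of which 5 fell, was lower by 0.43 in SCA3 (exact permutation p = 0.0159, adjusted 0.0424), with summed intensities of 71661 to 79582 under CCI-779 and 82739 to 108694 under placebo, and by 0.14 in wt (exact permutation p = 0.246, adjusted 0.454). The mean of 5 oligodendrocyte precursor genes was lower by 0.22 in SCA3 and that of 7 choroid plexus genes by 0.28 (exact permutation p = 0.00794 each, adjusted 0.0318). Of the precursor genes 2 of 5 fell and the median difference was 0.00, with sums of 4084 to 4513 under CCI-779 and 4904 to 5587 under placebo. Of the choroid plexus genes 0 of 7 passed and the median difference was −0.14, with overlapping sums of 39987 to 41590 under CCI-779 and 39197 to 47084 under placebo. The mean of 9 genes of meninges and fibroblasts, of which 3 rose in SCA3 and 1 in wt, was higher by 0.39 in SCA3 (exact permutation p = 0.0159, adjusted 0.0424) and by 0.27 in wt (exact permutation p = 0.0238, adjusted 0.0571). The means of the 8 neuronal, 8 astrocyte and 6 endothelial genes moved by 0.01 to 0.11 in size, none past the adjusted threshold. Single genes of these lists did pass. Of the neuronal genes 1 rose and 1 fell in each genotype. Of the astrocyte genes 1 rose in SCA3 and 2 in wt, and of the endothelial genes 1 rose in SCA3. In wt the precursor and choroid plexus means moved by 0.01 and −0.01, and Alas2, the 1 tested gene of the blood list, by −0.29 in SCA3 and −0.12 in wt, none past the threshold. The part of these cell types in the fall of Hspa5 and Hsp90b1 was not tested.

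The members did not move as 1 block from array to array. After subtraction of group means, Xbp1 ran most closely with Hspa5 among the brightest probe sets (r = 0.69 over 19 arrays, 0.59 without the 3 arrays that stood apart). Hspa5 with Calr gave 0.53 and 0.46, Eif2ak3 with Atf6 0.41 and 0.53, and the brighter Hsp90b1 probe set with Calr 0.27 and 0.52, so the order below the first pair depends on those arrays. Hspa5 and the brighter Hsp90b1 probe set gave −0.02 and 0.23, and Hspa5 and Ddit3 gave 0.01 and 0.04. The 3 Xbp1 probe sets agreed among themselves (0.64 to 0.72, and 0.55 to 0.56 without the 3 arrays). The 3 Hspa5 probe sets agreed less, at 0.40, 0.31 and 0.04, and at 0.45, 0.11 and 0.003 without the 3 arrays. The Hsp90b1 probe sets gave −0.20, and 0.18 without the 3 arrays, so the sign depends on those arrays. Outside the members, the genes most like Hspa5 by this measure were Stxbp6 (0.84), Slc41a3 (0.79), Gfod1 (0.79), Gbf1 (0.79) and Anxa3 (0.78). None of these 5 passed for the drug in either genotype, with adjusted p of 0.0631 or above (limma). Arrays share depth of labelling and RNA quality, so these values are descriptions.

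The other genes of the pathway were read from 7 lists with 83 genes, of which 70 were tested. In SCA3 9 fell and 5 rose under CCI-779 (12.9% and 7.14%, where 6.09% and 11% of all genes did), and in wt 3 fell and 8 rose (4.29% and 11.4%, where 1.64% and 11.5% of all genes did). Shares of single lists given below are to be read against these shares of all genes, and several lie near them. The lists had medians of −0.06 in SCA3 and 0.03 in wt, beside 0.00 and 0.08 over all genes. With arrays centred on their median the wt split turned to 10 fallers and 2 risers, so the wt direction of these lists depends on the scaling, while in SCA3 it was 10 and 3. Quantile normalization gave 6 fallers and 4 risers in wt and 10 and 5 in SCA3. Averaged over both genotypes 13 fell and 15 rose, or 18.6% and 21.4%, where 8.26% and 22% of all genes did (20 and 5 with the centring, 18 and 7 with quantile normalization). No gene of the lists differed between SCA3 and wt under either agent or in its drug effect between the genotypes.

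Of 18 other chaperones and folding enzymes, 3 fell and 2 rose in SCA3 (16.7% and 11.1%) and 3 fell and 1 rose in wt (16.7% and 5.56%). Ppib, a prolyl isomerase, averaged 11.10 ± 0.20 in SCA3 CCI-779 and 11.55 ± 0.08 in SCA3 placebo (SD, n = 5 each), and fell in both genotypes, by 0.45 in SCA3 (limma, adjusted p = 0.00448) and 0.43 in wt (limma, adjusted p = 0.0116). Pdia6, a disulfide isomerase, fell in wt by 0.38 (limma, adjusted p = 0.0217) and stood at −0.23 in SCA3 (limma, adjusted p = 0.101). Hyou1, the large ER chaperone that acts as exchange factor for Hspa5, fell in wt by 0.30 (limma, adjusted p = 0.0246) and stood at −0.16 in SCA3 (limma, adjusted p = 0.157). Canx (calnexin), the membrane-bound counterpart of Calr, fell in SCA3 by 0.26 (limma, adjusted p = 0.00876) and stood at −0.17 in wt (limma, adjusted p = 0.0964). Sil1, another exchange factor for Hspa5, fell in SCA3 by 0.27 (limma, adjusted p = 0.00622) and stood at −0.09 in wt (limma, adjusted p = 0.359). Each of the SCA3 calls of Ppib and Sil1 was lost in 2 of 14 alternatives of processing, and that of Canx in 1. Against these, P4hb, the classical disulfide isomerase, rose by 0.30 in SCA3 (limma, adjusted p = 0.0109) and by 0.39 in wt (limma, adjusted p = 0.00456). Txndc5, a further disulfide isomerase, rose by 0.57 in SCA3 (limma, adjusted p = 0.0202) and stood at 0.16 in wt (limma, adjusted p = 0.541). The rise of Txndc5 was lost without SCA3 CCI-779 replicate 2 (0.45, adjusted p = 0.0594) or 5 (0.50, adjusted p = 0.057), and without both the SCA3 chaperone count was 1 faller and 1 riser and that of all lists 3 fallers and 4 risers. The falls of Pdia6 and Hyou1 in wt were lost without wt CCI-779 replicate 4 (adjusted p = 0.0511 and 0.0573), that of Pdia6 without wt placebo replicate 3 (0.08) and that of Hyou1 without wt placebo replicate 2 (0.0921). Averaged over both genotypes 6 of the 18 fell and 2 rose, with a list median of −0.09.

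**Figure D5:**
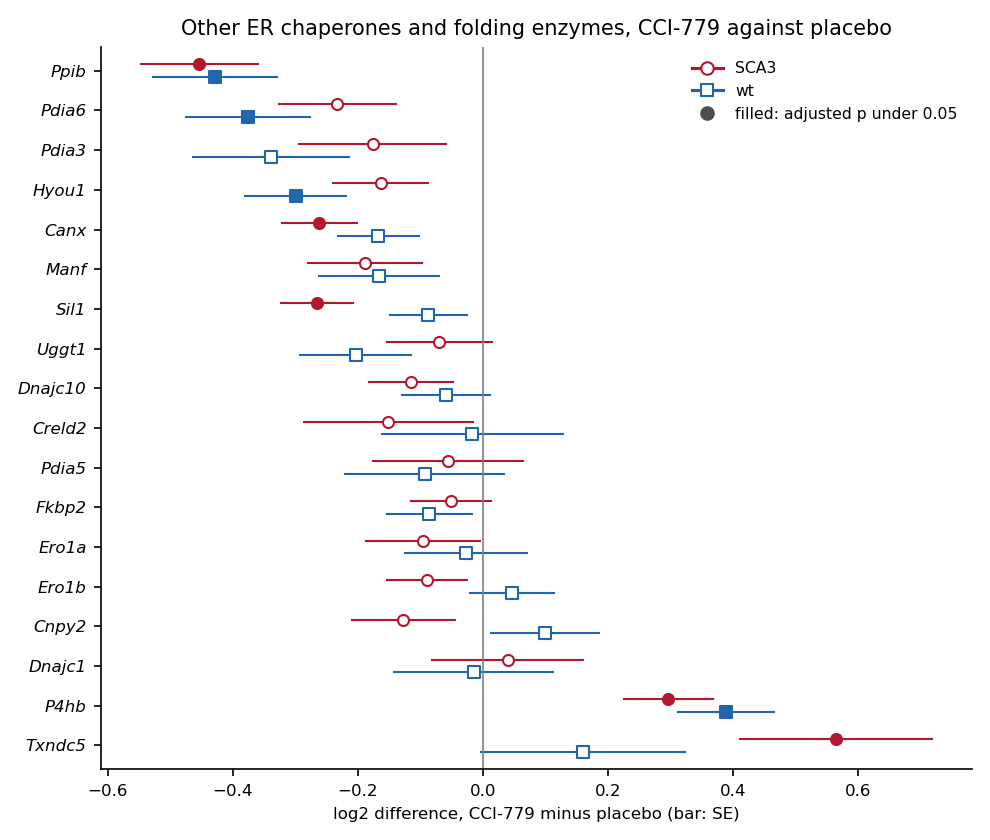
Log2 difference between CCI-779 and placebo (x axis, bars are SE) of 18 other ER chaperones and folding enzymes (rows), in SCA3 (circles) and wt (squares), filled where the adjusted p is under 0.05. Ppib lies at −0.45 in SCA3 and −0.43 in wt, and P4hb at 0.30 in SCA3 and 0.39 in wt.

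In the Eif2ak3 (PERK) arm 1 of 10 tested genes fell in SCA3 and 1 rose in wt. Atf4, the factor translated under PERK, averaged 10.30 ± 0.27 in SCA3 CCI-779 and 10.88 ± 0.16 in SCA3 placebo (SD, n = 5 each). Atf4 fell in SCA3 by 0.58 (SE 0.14, 1.49-fold lower, limma adjusted p = 0.0114) and stood at −0.25 in wt (limma, adjusted p = 0.289). The SCA3 call of Atf4 held without any 1 of the 19 arrays. It was lost in 3 of 14 alternatives of processing, the spike-in covariate among them, with differences of −0.64 to −0.26 over the 14. Of the known targets of Atf4, Ppp1r15a, which restores translation, stood at 0.13 in SCA3 and 0.19 in wt (limma, adjusted p = 0.226 and 0.113), and Trib3 was not tested. Cebpb, a partner of Ddit3, rose in wt by 0.34 (limma, adjusted p = 0.0369, lost without any 1 of 6 arrays with adjusted p up to 0.126). Dnajc3, an inhibitor of PERK, stood at −0.20 in SCA3 and 0.13 in wt. In the Ern1 and Xbp1 arm 1 of 6 rose in SCA3 and 0 changed in wt, and this was Dnajb9 (ERdj4), a cochaperone of Hspa5 that Xbp1 activates. Dnajb9 averaged 11.06 ± 0.06 in SCA3 CCI-779 and 10.86 ± 0.04 in SCA3 placebo (SD, n = 5 each), a rise of 0.20 (limma, adjusted p = 0.00869), and stood at 0.14 in wt (limma, adjusted p = 0.0658). The SCA3 call of Dnajb9 was lost in 2 of 14 alternatives of processing.

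Of 8 genes tested around Atf6, 1 fell in SCA3 and 2 rose in wt. The faller was Creb3, a related membrane-bound factor, by 0.40 (limma, adjusted p = 0.0153, lost in 2 of 14 alternatives of processing). The risers were Nfyb, a subunit of NF-Y, by 0.36 (limma, adjusted p = 0.0255) and Mbtps1, the Golgi protease that cuts Atf6, by 0.25 (limma, adjusted p = 0.0341). Nfyb was lost without any 1 of 3 arrays, with adjusted p up to 0.0708, and Mbtps1 without any 1 of 6, with adjusted p up to 0.0907. Atf6b stood at 0.04 in SCA3 and 0.08 in wt. Of 14 genes of ER-associated degradation, 2 fell in SCA3 and 2 rose in wt. Derl2 and Derl1, channel proteins of that process, fell in SCA3 by 0.36 (limma, adjusted p = 0.00416) and 0.30 (limma, adjusted p = 0.00597). Syvn1, its ubiquitin ligase, and Herpud2 rose in wt by 0.47 (limma, adjusted p = 0.00597) and 0.38 (limma, adjusted p = 0.0136), while Sel1l, the partner of Syvn1, stood at 0.09 in both genotypes.

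Of 10 ER translocation genes, 2 fell in SCA3, Ssr1 among them by 0.28 (limma, adjusted p = 0.00957), and 1 rose in wt, Tram1, by 0.32 (limma, adjusted p = 0.0166, lost without wt placebo replicate 4 at 0.0622). The call of Ssr1 was lost in 3 of 14 alternatives of processing. Of 4 tested genes of ER stress and cell death, 2 rose in SCA3 and 1 in wt. Tmbim6 (Bax inhibitor), an ER membrane protein that protects from cell death, averaged 11.53 ± 0.39 in SCA3 CCI-779 and 10.74 ± 0.13 in SCA3 placebo (SD, n = 5 each). Tmbim6 rose by 0.79 in SCA3 (SE 0.14, 1.73-fold higher, limma adjusted p = 0.00208) and by 0.53 in wt (SE 0.15, limma adjusted p = 0.0327, lost without any 1 of 6 arrays with adjusted p up to 0.0815).

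The members with ERSE in the printed promoters differed in their values. Hspa5 fell, Hsp90b1 fell on 1 of its 2 probe sets, and Calr, which also carries ERSE, did not pass. ERSE occurs in the promoters of 37 genes, 13 of which were tested, and averaged over both genotypes 3 fell (Hspa5, Canx and Pdia6) and 3 rose (Syvn1, Pan2 and Spats2l, the last 2 named after their values were seen). That is 23.1% fallers and 23.1% risers, beside 8.06% and 22.2% of the 8491 tested genes with a promoter in the table. Without the members 2 of 10 fell and 3 rose. These counts are descriptions, with no test.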

How the data were processed

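RNA of 19 mouse brain samples was hybridised to 1 array each. The authors deposited GCRMA intensity values on a linear scale, per the labels and the submitters' processing notes, which name GCRMA without a version. The values were taken to log2 here, since the deposited table is not on a log2 scale. Control probe sets (64) were left out, and probe sets with a mean log2 intensity under 4 were not tested.

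Group means over all 19 arrays were fitted with limma 3.58.1 (R 4.3.3), with 6 contrasts and Benjamini-Hochberg adjustment over 20473 probe sets at 0.05. The fit was tested on simulated data. A gene was represented by its brightest tested probe set. For array measures, two-sided exact permutation tests were used, whose smallest p is 0.00794 with 5 against 5 arrays, and relations over arrays by 100000 permutations. GEO's labels give no separate animal per array, so p-values measure the spread between samples, which may be technical. The number of arrays limits the precision. The label of wt CCI-779 replicate 1 carries no number.

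The 10 members, the 7 pathway lists and the 9 marker lists were chosen with earlier results of these data known. Named were all members, up to 12 pathway genes past the threshold per drug contrast by smallest p, 9 pathway genes whatever their values, and the 5 genes most like Hspa5. Symbols came from the annotation of the array, in which 34945 probe sets have 1 symbol, 932 several and 9160 none. Of these, 34741 matched the RefSeq gene table by Entrez identifier, and 0 symbols changed. Promoters came from RefSeq (GRCm38.p6). Alternatives covered the filter, scaling, offset, array weights, covariates and left-out arrays. The same-numbered arrays of different groups were checked for pairing and did not pair (10 of 27 pairs correlated above 0.1).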

Additional observations from a re-analysis of the deposited data

Results flagged for a closer look

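Of 92 groups of 4 or 5 arrays checked, 11 held an array far from the others of its group, where chance gives about 1 in 20. Among the members, Hsp90b1 1438040_a_at read 9.73 on wt CCI-779 replicate 1, with the other arrays of the group between 10.88 and 11.00. The same array stood apart in the 3′ to 5′ difference of GAPDH (0.28, others −0.44 to −0.39) and of actin (2.55, others 1.20 to 1.53), and in Atf6 1453288_at (3.22, others 4.13 to 4.16). Hspa5 1416064_a_at read 11.89 on wt CCI-779 replicate 4, with the others between 12.06 and 12.08, and this array is the lowest of a group already below placebo. Eif2ak3 read 8.10 on wt placebo replicate 3, with the others between 8.30 and 8.32. Calr 1456170_x_at read 10.91 on wt CCI-779 replicate 5, with the others between 11.30 and 11.38.

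The dimmer Atf6 probe sets gave 3 more such values. Atf6 1456021_at read 5.63 on SCA3 CCI-779 replicate 4, with the others between 6.10 and 6.12, and 6.41 on wt CCI-779 replicate 2, with the others between 6.01 and 6.11. Atf6 1453288_at read 4.20 on wt placebo replicate 2, with the others between 4.14 and 4.15. The GAPDH difference of SCA3 placebo replicate 4 was −0.47, with the others between −0.53 and −0.52. Apart from the relations to GAPDH and actin given above, the part of RNA quality in these values was not tested.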

How the results depend on the processing

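Member counts are given as called probe sets, with genes in brackets, against 2 (1) in SCA3, 3 (1) in wt and 6 (3) averaged. In SCA3 the count was 1 without the filter, 4 (2) with quantile normalization, 6 (3) with arrays centred on their median, 4 (2) with GAPDH or actin as a covariate and 1 without SCA3 CCI-779 replicates 2 and 5. The gene count was 2 with array weights, with only the arrays compared and with probe sets averaged per gene. In wt the count was 0 (0) without the filter and 1 with only the arrays compared. The gene count in wt was 2 with a filter at 6, with log2(value + 16), with array weights, with actin as a covariate and without the 3 arrays that stood apart. Averaged, the count was 3 (1) without the filter, and the gene count 5 with actin and 6 without the 3 arrays. With the spike-in covariate, which ran with treatment, all drug counts were 0 (0). Actin and the 3 arrays were chosen after seeing the data.

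Leaving out 1 array gave 1 to 4 (1 to 2) in SCA3, 0 to 5 (0 to 3) in wt and 3 to 7 (1 to 4) averaged. The SCA3 count was 1 without any 1 of 6 SCA3 arrays (placebo replicates 1, 2, 4 and 5, CCI-779 replicates 2 and 4), and 4 without wt CCI-779 replicate 1. The wt count was 5 without wt CCI-779 replicate 2, 0 without wt CCI-779 replicate 4 or wt placebo replicate 2, 3 or 4, and 1 without wt placebo replicate 1. The averaged count was 3 without wt placebo replicate 3. Genotype and interaction counts were 0 under every alternative run.

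Same-numbered arrays correlated between −0.31 and 0.29, so they share only a number. With the replicate block Hspa5 1416064_a_at in wt stood at −0.33 (limma, adjusted p = 0.0527), the wt gene count was 0 and the averaged count 3 (1), while the SCA3 count was 2. Over members and named genes, called values kept their call in 266 cases, lost it in 91 and turned direction in 0. The causes were not tested. Signal over background limits Pdia4 and the 9 dim probe sets.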
